A study of Homo sapiens with 24 samples.

Results

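Transcripts of 10 genes of the integrated stress response were followed in U2OS cells exposed to sodium arsenite (NaAsO2) and to RK-33, an inhibitor of the RNA helicase DDX3. The genes were chosen by symbol: ATF4, 8 genes widely described as its targets (ATF3, DDIT3, DDIT4, PPP1R15A, TRIB3, CHAC1, ASNS and SESN2), and CEBPB, a bZIP factor that pairs with ATF4. They were chosen with earlier results of these data known. All 10 were found among the 60308 genes of the exon count table. The intron count table, with 37473 genes, held 8 of them, because DDIT4 and CEBPB had no intron entry, and none of the 10 was the host of any of the 394 circular RNAs measured.

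U2OS is a human osteosarcoma cell line. Cells were given DMSO (0.12%, 2 h, named Ctrl), NaAsO2 (500 µM, 60 min), RK-33 (6 µM, given as a pre-treatment of 1 h) or both, with NaAsO2 after the RK-33 pre-treatment (Combo). The DMSO time matched that of RK-33 addition. No DMSO treatment is stated for the NaAsO2 group, so a part of the vehicle in its comparisons cannot be told apart. Each lysate was cleared of nuclei and then spun into a soluble fraction and an insoluble fraction enriched for stress granules and P-bodies, which gave 24 total RNA libraries in 8 groups of 3. The design has 1 cell line, 1 dose of each compound and 1 time. The study repeated the experiment 3 times, but the labels do not say that replicates came from separate cultures, so p-values measure the spread between these libraries.

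Exon counts summed to 8627294 to 15376554 per library and intron counts to 1621536 to 6092652. Markers of the mesenchymal and osteoblast lineage were present in every library, VIM with at least 2174 counts and COL1A1 with at least 7618, while ALB, a liver marker, had 0 to 3 counts and PTPRC, a blood cell marker, 3 to 27. Markers were not all so far apart: the epithelial CDH1 (35 to 92 counts) and EPCAM (9 to 79) and the endothelial PECAM1 (7 to 40) came near ALPL, an osteoblast enzyme (50 to 250). Replicate 3 of the NaAsO2 insoluble fraction stood apart. RN7SL1, the RNA of the signal recognition particle, took 5.79% of its exon counts, against 0.426% to 1.23% in the other insoluble libraries and 7.51% to 15.5% in the soluble ones. That library was the highest of its group for 7 of the 10 genes and for 47.6% of all genes tested, and comparisons of the 10 genes whose calls or ranks rest on it are given with and without it. Replicate 3 of the RK-33 soluble and of the Combo insoluble libraries differed from their groups less, with 23.1 to 32.4 as the chi-square per degree of freedom against their replicates, where that of the NaAsO2 library was 130 or more and that of every other pair 7.01 or less. They were the highest of their groups for 9 and 8 of the 10 genes, and for 39.8% and 39.3% of all genes tested.

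In the integrated stress response, kinases that sense distinct stresses phosphorylate the initiation factor eIF2, which lowers protein synthesis as a whole while the ATF4 message is translated better. ATF4 then binds, with a C/EBP family partner, to composite C/EBP-ATF elements and switches on genes for amino acid supply, redox balance, cell death and recovery of translation. Arsenite is a classical trigger of eIF2 phosphorylation and of stress granules.

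The upstream sequences of these genes are shown because the letters of such elements can be read in them. Every one of the 10 genes had a RefSeq promoter window (GRCh38.p14, 250 bases before to 50 bases after the start site). The core TGATGNAA, searched on both strands, was present for 3 of the 10 (ATF3, CHAC1 and ASNS) and for 4.46% of 27305 genes. The cyclic AMP response element TGACGTCA was present for PPP1R15A and for 2.25% of genes. The heat shock pair GAANNTTC was present for ASNS, where its letters overlap those of the core, and for 8.21% of genes. The 250 bases before the start site of these 4 genes are given 5′ to 3′ on the strand of the gene, with the match to TGATGNAA or TGACGTCA in capitals.
ATF3, chr1:212565157-212565406, plus strand: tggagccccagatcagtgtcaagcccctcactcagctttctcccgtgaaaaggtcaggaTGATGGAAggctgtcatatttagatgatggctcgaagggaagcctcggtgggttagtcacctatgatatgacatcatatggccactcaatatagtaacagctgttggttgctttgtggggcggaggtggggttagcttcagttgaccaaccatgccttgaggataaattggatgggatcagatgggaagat
CHAC1, chr15:40953221-40953470, plus strand: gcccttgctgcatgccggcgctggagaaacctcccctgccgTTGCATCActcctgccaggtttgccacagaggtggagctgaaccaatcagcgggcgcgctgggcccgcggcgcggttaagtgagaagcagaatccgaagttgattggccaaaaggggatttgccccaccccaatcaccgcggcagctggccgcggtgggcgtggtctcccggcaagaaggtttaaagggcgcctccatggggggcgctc
ASNS, chr7:97872409-97872658, minus strand: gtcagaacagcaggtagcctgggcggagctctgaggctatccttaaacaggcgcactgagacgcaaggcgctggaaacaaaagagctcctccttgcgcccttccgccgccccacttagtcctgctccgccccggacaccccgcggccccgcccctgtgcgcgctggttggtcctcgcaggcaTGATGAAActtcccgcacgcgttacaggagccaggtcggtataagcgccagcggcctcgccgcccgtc
PPP1R15A, chr19:48872171-48872420, plus strand: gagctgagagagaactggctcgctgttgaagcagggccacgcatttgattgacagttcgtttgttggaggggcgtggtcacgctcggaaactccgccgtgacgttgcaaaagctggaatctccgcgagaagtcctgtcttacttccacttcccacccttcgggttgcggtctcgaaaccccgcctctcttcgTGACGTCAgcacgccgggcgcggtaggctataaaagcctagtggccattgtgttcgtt
The matches began 191 (ATF3), 209 (CHAC1), 68 (ASNS) and 58 (PPP1R15A) bases before the start site, and the CHAC1 match reads on the strand opposite to the gene. ATF3 had 2 start sites in these windows, and only the distal one, shown here, held the core. A match is a description of letters and not evidence of binding.

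A first question was how much of each transcript the cells held and where its level was lowest and highest. Levels are given as CPM, exon counts scaled to library size with TMM factors. A CPM is a share of a library, so a rise in a gene's RNA and a loss of other RNA cannot be told apart, nor can a change in all cells and one in some of them. A spike-in set was added to each library, but its counts were not analysed here, so no level is given per amount of RNA. Per kilobase of exon, ATF4 was the most abundant of the 10 in the Ctrl soluble fraction at 128.5 CPM per kb. CEBPB followed at 26.6 CPM per kb and PPP1R15A at 19.5 CPM per kb, and ASNS was the least abundant at 0.498 CPM per kb. The Combo soluble group had the highest mean for 8 of the 10 genes. The exceptions were SESN2, highest in the Combo insoluble group, and TRIB3, highest in the NaAsO2 insoluble group through replicate 3 alone. Without that library its mean there was 19.4 CPM and the RK-33 soluble group was the highest.

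**Figure D1:**
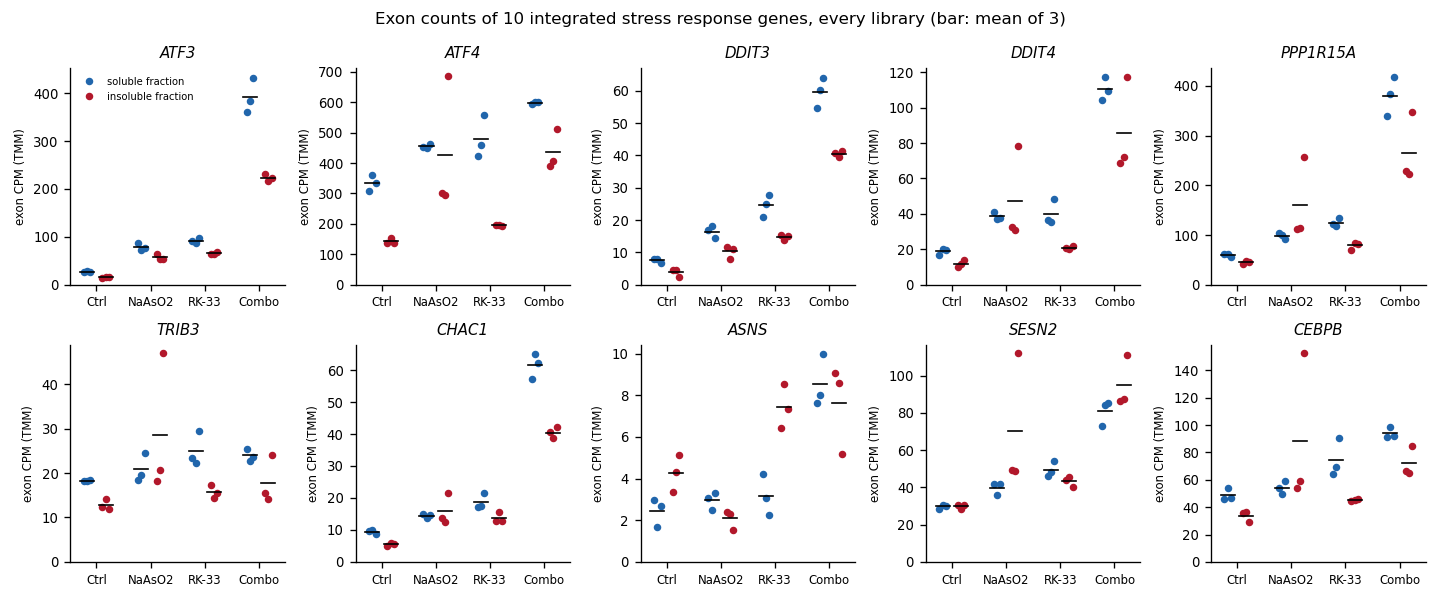
Exon level of each of the 10 genes in every library, as TMM-normalised CPM (vertical axis, linear from 0), by treatment and fraction. Points are libraries and black bars are means of 3. The 3 Combo soluble libraries of ATF3 lie between 360.6 and 432.4 CPM, above every other library, and 1 NaAsO2 insoluble library lies far above its replicates for ATF4, DDIT4, PPP1R15A, TRIB3, SESN2 and CEBPB.

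The first comparison asked how the pathway responded to 1 h of arsenite. In the soluble fraction 3 of the 10 genes rose by the rule used throughout (an edgeR quasi-likelihood adjusted p below 0.05 together with a log2 change of 1 or more in either direction), ATF3, DDIT3 and DDIT4, where 0.492% of 17666 genes were called higher. The median log2 fold change of the 10 was 0.53, beside 0.03 for all genes tested. In the insoluble fraction 9 of the 10 rose, where 5.61% of genes were called higher, and the median of the 10 was 1.48 beside -0.02. Without replicate 3 of the NaAsO2 insoluble libraries 6 of the 10 rose (ATF3, ATF4, DDIT3, DDIT4, PPP1R15A and CHAC1) and 2.56% of genes were called higher. ASNS was the only one of the 10 with a negative estimate there. Scaled by library size alone, DDIT3 (0.95) and DDIT4 (0.86) were not called in the soluble fraction, and fitted with only the groups compared, TRIB3 (adjusted p = 0.0683) and CEBPB (adjusted p = 0.0564) were not called in the insoluble one.

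RK-33 alone addressed the effect of the DDX3 inhibitor without arsenite. In the soluble fraction 4 of the 10 genes rose, ATF3, DDIT3, DDIT4 and PPP1R15A, where 0.283% of genes were called higher. The median of the 10 was 0.86, beside -0.01 for all genes tested. In the insoluble fraction ATF3, DDIT3 and CHAC1 rose, where 0.702% of genes were called higher, with a median of 0.80 beside -0.00. The estimate was above 0 for all 10 genes in both fractions. The PPP1R15A call was lost with scaling by library size alone (0.99), and without RK-33 soluble replicate 3 the soluble calls were 3, DDIT4 (0.93) being lost.

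Combo against NaAsO2 asked what RK-33 added to arsenite. In the soluble fraction 7 of the 10 genes rose, ATF3, CHAC1, PPP1R15A, DDIT3, ASNS, DDIT4 and SESN2, where 2.41% of genes were called higher, and the median of the 10 was 1.52 beside -0.04. In the insoluble fraction DDIT3, ATF3, ASNS and CHAC1 rose, where 3.11% of genes were called higher, with a median of 0.80 beside 0.01. The estimate was above 0 for 8 of the 10. Those of TRIB3 (-0.66 ± 0.25, edgeR adjusted p = 0.0755) and CEBPB (-0.29 ± 0.25, adjusted p = 0.427) were below 0. They were -0.17 and 0.29 with NaAsO2 insoluble replicate 3 left out. Without replicate 3 of the NaAsO2 insoluble libraries DDIT4 and PPP1R15A were called as well, which made 6 of the 10, and 3.03% of genes were called higher. Fitted with only the groups compared, CHAC1 (adjusted p = 0.106) and ASNS (adjusted p = 0.132) were not called there. Without Combo insoluble replicate 3 the insoluble count was 4 as before. These comparisons share samples with those against Ctrl and are not independent of them.

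**Figure D2:**
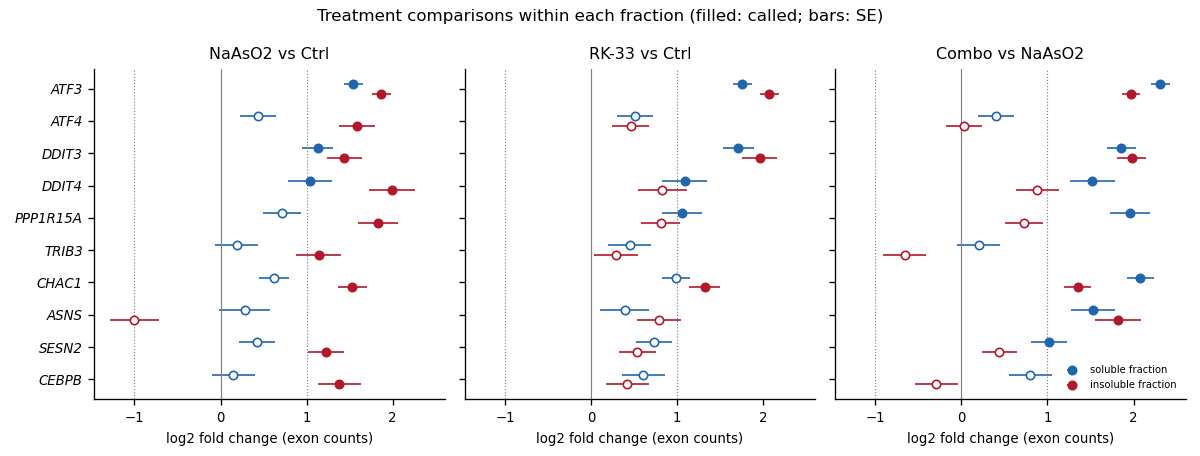
Log2 fold change of exon counts for each of the 10 genes (rows) in 3 treatment comparisons (panels), with soluble and insoluble fractions in separate colours. Bars are standard errors, filled points passed the rule for a call and dotted lines mark a log2 fold change of 1 and -1. ATF3 is at or above 1.54 in all 6 comparisons, while TRIB3 and CEBPB are filled in the NaAsO2 insoluble comparison alone.

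Among the transcription factors, ATF4 itself (chr22:39519695-39522683, plus strand) passed in none of the soluble comparisons. Soluble ATF4 was at 309.5, 361.9 and 335.9 CPM in Ctrl, 452.5, 449.6 and 461.5 CPM with NaAsO2, 423.7, 459.2 and 556.6 CPM with RK-33 and 593.8, 601.2 and 600.4 CPM with Combo. Each treated group lay above Ctrl without overlap, but the change with NaAsO2 was 0.44 ± 0.21 (log2, SE; adjusted p = 0.166, edgeR), that with RK-33 was 0.51 ± 0.21 (adjusted p = 0.182), and Combo exceeded NaAsO2 by 0.40 ± 0.21 (adjusted p = 0.263), none of which passed. Insoluble ATF4 was at 136.2, 154.5 and 136.2 CPM in Ctrl and at 302.9, 294.1 and 686.4 CPM with NaAsO2, with replicate 3 far above the others. The rise was 1.59 ± 0.21 (adjusted p = 7.92e-06), and 1.14 ± 0.12 (adjusted p = 1.1e-08) without that library. RK-33 left the insoluble level at 197.0, 196.7 and 193.7 CPM and Combo at 390.7, 407.8 and 511.0 CPM, the latter overlapping NaAsO2 through replicate 3 alone. Combo over NaAsO2 was 0.03 ± 0.21 (adjusted p = 0.932) with that library and 0.50 ± 0.12 (adjusted p = 0.00557), under the fold threshold, without it.

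ATF3 (chr1:212565334-212620777, plus strand), a bZIP factor induced by many stresses, gave the largest estimate of the 10 in 4 of the 6 treatment comparisons. With NaAsO2 in the insoluble fraction DDIT4 was ahead of it (1.99 against 1.87), but not without replicate 3 (1.49 against 1.97). Soluble ATF3 was at 25.7, 29.1 and 26.7 CPM in Ctrl, 87.6, 73.2 and 76.4 CPM with NaAsO2, 90.7, 87.6 and 97.1 CPM with RK-33 and 360.6, 383.6 and 432.4 CPM with Combo. The Combo libraries were all above every single-treatment library, and those of NaAsO2 and RK-33, which touched at their edges, were all above Ctrl. The log2 rise was 1.54 ± 0.11 with NaAsO2 (adjusted p = 4.55e-09), 1.76 ± 0.11 with RK-33 (adjusted p = 4.87e-10) and 2.31 ± 0.11 from NaAsO2 to Combo (adjusted p = 2.52e-12). Insoluble ATF3 went from 15, 15.6 and 16.1 CPM in Ctrl to 63.6, 53.2 and 54.6 CPM with NaAsO2, 65.2, 63.2 and 68.3 CPM with RK-33 and 232.2, 216.1 and 221.8 CPM with Combo. Replicate 3 of NaAsO2 did not stand out for ATF3. The insoluble rises were 1.87 ± 0.11 (adjusted p = 7.09e-11), 2.07 ± 0.11 (adjusted p = 6.57e-11) and, from NaAsO2 to Combo, 1.97 ± 0.10 (adjusted p = 3.2e-11).

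DDIT3 (chr12:57516588-57521737, minus strand) encodes CHOP, a bZIP factor tied to stress-induced cell death. Soluble DDIT3 was at 7.91, 8.01 and 6.64 CPM in Ctrl, 16.8, 18.1 and 14.4 CPM with NaAsO2, 21.1, 25 and 27.9 CPM with RK-33 and 54.6, 60.2 and 64.1 CPM with Combo, so that the 4 groups were ranked without overlap. The rise was 1.13 ± 0.18 with NaAsO2 (adjusted p = 0.000379), 1.71 ± 0.18 with RK-33 (adjusted p = 4.78e-06) and 1.86 ± 0.17 from NaAsO2 to Combo (adjusted p = 1.72e-07). Insoluble levels were 4.44, 4.64 and 2.32 CPM in Ctrl, 11.7, 8.07 and 11.1 CPM with NaAsO2, 15.5, 13.7 and 15 CPM with RK-33 and 40.7, 39.5 and 41.4 CPM with Combo, in the same order and again without overlap. The corresponding changes were 1.44 ± 0.20 (adjusted p = 1.17e-05), 1.96 ± 0.20 (adjusted p = 5.35e-07) and 1.98 ± 0.17 (adjusted p = 1.21e-07). DDIT3 shares 27.2% of its exon bases with MARS1 on the opposite strand, and counting ignored strand, so fragments from that stretch cannot be assigned to either gene.

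CEBPB (chr20:50190830-50192668, plus strand) encodes a C/EBP factor that can pair with ATF4. Soluble CEBPB was at 45.9, 54.0 and 46.8 CPM in Ctrl, 54.0, 49.7 and 58.9 CPM with NaAsO2, 64.4, 69.4 and 90.5 CPM with RK-33 and 91.4, 98.9 and 92.2 CPM with Combo. NaAsO2 overlapped Ctrl and the other 2 groups lay above Ctrl, but no soluble comparison passed, with 0.15 ± 0.25 for NaAsO2 (adjusted p = 0.733), 0.61 ± 0.25 for RK-33 (adjusted p = 0.186) and 0.80 ± 0.25 for Combo over NaAsO2 (adjusted p = 0.0572). Insoluble CEBPB rose with NaAsO2 from 35.6, 36.8 and 29.2 CPM to 54.0, 59.5 and 152.5 CPM, by 1.38 ± 0.25 (adjusted p = 0.00023), and by 0.81 ± 0.14 (adjusted p = 2.38e-05), short of the fold threshold, without replicate 3. With Combo insoluble CEBPB was at 66.3, 65.2 and 84.7 CPM, overlapping NaAsO2 through replicate 3 of NaAsO2 alone. CEBPB shares 12.6% of its exon bases with the antisense CEBPB-AS1.

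Feedback regulators of the pathway behaved unlike each other. PPP1R15A (chr19:48872421-48876058, plus strand) encodes GADD34, which brings a phosphatase to eIF2 and restores translation. Soluble PPP1R15A was at 61.0, 62.5 and 55.9 CPM in Ctrl, 103.1, 99.5 and 91.5 CPM with NaAsO2, 122.7, 117.9 and 134.3 CPM with RK-33 and 340.0, 382.7 and 417.8 CPM with Combo. The groups did not overlap, and every Combo library was far above the rest. NaAsO2 alone gave 0.71 ± 0.22 (adjusted p = 0.0383), short of the fold threshold, RK-33 gave 1.06 ± 0.23 (adjusted p = 0.00603) and Combo over NaAsO2 gave 1.96 ± 0.23 (adjusted p = 6.25e-06). Insoluble PPP1R15A was at 41.3, 47.5 and 46.1 CPM in Ctrl, 111.1, 113.9 and 256.9 CPM with NaAsO2, 69.8, 84.7 and 82.4 CPM with RK-33 and 227.8, 223.4 and 346.4 CPM with Combo. NaAsO2 raised it by 1.83 ± 0.23 (adjusted p = 3.47e-06), or by 1.39 ± 0.14 (adjusted p = 1.11e-08) without replicate 3. The Combo and NaAsO2 ranges overlapped through replicate 3 of NaAsO2 alone, and the difference went from 0.73 ± 0.22 (adjusted p = 0.0319) to 1.19 ± 0.14 (adjusted p = 1.53e-06) without it.

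TRIB3 (chr20:362835-397559, plus strand) encodes a pseudokinase that binds ATF4 and dampens it. Soluble TRIB3 was at 18.2, 18.3 and 18.4 CPM in Ctrl, 18.5, 19.5 and 24.4 CPM with NaAsO2, 23.3, 22.2 and 29.5 CPM with RK-33 and 25.5, 22.8 and 23.7 CPM with Combo. Combo overlapped both single treatments. No soluble comparison passed, the estimates being 0.19 ± 0.25 (adjusted p = 0.666) for NaAsO2, 0.45 ± 0.25 (adjusted p = 0.382) for RK-33 and 0.20 ± 0.25 (adjusted p = 0.672) for Combo over NaAsO2. With NaAsO2 insoluble TRIB3 was at 18.2, 20.6 and 47.1 CPM, against 12.4, 14.1 and 12 CPM in Ctrl. That rise of 1.14 ± 0.26 (adjusted p = 0.00144) was 0.67 ± 0.18 (adjusted p = 0.00333), and no longer a call, without replicate 3. Insoluble TRIB3 was at 15.5, 14.1 and 24 CPM with Combo, which overlapped NaAsO2.

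Of the genes that restrain growth and handle metabolites, DDIT4 (chr10:72273919-72276036, plus strand) encodes REDD1, an inhibitor of mTORC1. Soluble DDIT4 was at 16.7, 20 and 19.6 CPM in Ctrl, 41.1, 37.1 and 37.5 CPM with NaAsO2, 36.3, 35.2 and 48.3 CPM with RK-33 and 104.3, 117.2 and 109.5 CPM with Combo. The single treatments overlapped each other between Ctrl and Combo. The rises were 1.04 ± 0.26 with NaAsO2 (adjusted p = 0.0115), 1.09 ± 0.26 with RK-33 (adjusted p = 0.0152) and 1.52 ± 0.26 from NaAsO2 to Combo (adjusted p = 0.000684). Both calls against Ctrl sat at the threshold: the NaAsO2 call was lost without replicate 1 of Ctrl or of NaAsO2 (log2 0.96 to 1.07 over the 6 libraries left out in turn), and the RK-33 call without replicate 1 or 3 of Ctrl or replicate 3 of RK-33 (0.93 to 1.16). Insoluble DDIT4 was at 9.74, 11.6 and 13.9 CPM in Ctrl, 32.6, 30.7 and 78.5 CPM with NaAsO2, 20.9, 20.3 and 21.7 CPM with RK-33 and 68.6, 72.0 and 117.2 CPM with Combo. NaAsO2 raised it by 1.99 ± 0.27 (adjusted p = 1.01e-05), or by 1.49 ± 0.18 (adjusted p = 2.28e-07) without replicate 3. Combo exceeded NaAsO2 by 0.88 ± 0.25 (adjusted p = 0.0256), or by 1.40 ± 0.17 (adjusted p = 1.68e-06) without that library.

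SESN2 (chr1:28259518-28282491, plus strand) encodes sestrin 2, a leucine sensor that also restrains mTORC1. Its soluble level was 28.6, 30.4 and 30.3 CPM in Ctrl, 41.9, 35.9 and 41.8 CPM with NaAsO2, 46.1, 48.4 and 54.1 CPM with RK-33 and 72.8, 84.5 and 85.5 CPM with Combo, with no overlap between any of the groups. Only Combo over NaAsO2 passed, at 1.02 ± 0.21 (adjusted p = 0.00408), and it was 0.95, no longer a call, without replicate 2 of the NaAsO2 soluble libraries. With NaAsO2 insoluble SESN2 was at 49.4, 49.0 and 112.4 CPM against 30.4, 28.6 and 30.6 CPM in Ctrl, a rise of 1.23 ± 0.21 (adjusted p = 0.000127) that was 0.79 ± 0.12 (adjusted p = 4.85e-06) without replicate 3. Combo was at 86.6, 87.6 and 111.1 CPM, above NaAsO2 by 0.44 ± 0.20 (adjusted p = 0.138), or by 0.90 ± 0.12 (adjusted p = 4.2e-06), short of the fold threshold, without that library.

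CHAC1 (chr15:40952962-40956512, plus strand) encodes an enzyme that breaks down glutathione. Its soluble level was 9.59, 9.94 and 8.67 CPM in Ctrl, 15.1, 13.7 and 14.7 CPM with NaAsO2, 17.2, 17.6 and 21.4 CPM with RK-33 and 57.3, 64.9 and 62.2 CPM with Combo, and the 4 groups did not overlap. NaAsO2 gave 0.62 ± 0.17 (adjusted p = 0.0159) and RK-33 gave 0.99 ± 0.16 (adjusted p = 0.000813), both under the fold threshold, while Combo over NaAsO2 was 2.08 ± 0.16 (adjusted p = 1e-08). Insoluble CHAC1 was at 4.98, 5.95 and 5.5 CPM in Ctrl, 13.8, 12.5 and 21.7 CPM with NaAsO2, 12.7, 15.6 and 12.9 CPM with RK-33 and 40.5, 38.7 and 42.2 CPM with Combo. All 3 comparisons were called there, at 1.53 ± 0.17 (adjusted p = 9.79e-07), 1.32 ± 0.18 (adjusted p = 2.03e-05) and 1.35 ± 0.16 (adjusted p = 7.06e-06).

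ASNS (chr7:97851677-97872542, minus strand), asparagine synthetase, had 13 to 121 exon counts per library. It shares 49.3% of its exon bases with the lncRNA ENSG00000284707 on the same strand, and fragments there cannot be assigned to either, so its values are uncertain. Its soluble level was 2.98, 1.66 and 2.68 CPM in Ctrl, 3.05, 2.49 and 3.31 CPM with NaAsO2, 4.21, 3.08 and 2.25 CPM with RK-33 and 7.62, 8.0 and 10.0 CPM with Combo. Only Combo stood above the rest, by 1.53 ± 0.26 over NaAsO2 (adjusted p = 0.000857). Insoluble ASNS was at 3.36, 4.33 and 5.12 CPM in Ctrl, 2.42, 2.32 and 1.54 CPM with NaAsO2, 6.43, 8.55 and 7.33 CPM with RK-33 and 9.08, 8.61 and 5.16 CPM with Combo. The NaAsO2 libraries lay below those of Ctrl at -1.0 ± 0.28 (adjusted p = 0.00751), just short of the fold threshold, and Combo lay above NaAsO2 at 1.82 ± 0.27 (adjusted p = 0.000154).

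The Combo level can be set against the single treatments through the test of whether the arsenite response differed with RK-33 present. In the soluble fraction CHAC1 was the only one of the 10 genes to pass, where 0.917% of genes were called higher. Its level rose 1.54-fold with NaAsO2 and 1.99-fold with RK-33, a product of 3.07, and 6.54-fold with Combo, and the difference was 1.09 ± 0.23 on the log2 scale (adjusted p = 0.0116, edgeR). ATF3 rose 14.4-fold with Combo against a product of 9.85 (0.55 ± 0.15, adjusted p = 0.0471, under the fold threshold). PPP1R15A rose 6.36-fold against a product of 3.43, which did not pass (0.89 ± 0.31, adjusted p = 0.136), and DDIT3 rose 7.93-fold against 7.19 (0.15 ± 0.25, adjusted p = 0.803). The largest estimate was that of ASNS, which rose 3.51-fold against 1.58 and did not pass (1.14 ± 0.39, adjusted p = 0.129). ASNS was called when only the groups compared were fitted, and PPP1R15A with scaling by library size alone. In the insoluble fraction 0 of the 10 passed by edgeR's quasi-likelihood test, its likelihood ratio test or DESeq2, where 3.97% of genes were called in either direction, with 2 of the 10 at an unadjusted p under 0.05 in the first (28.4% of all genes). Without Combo insoluble replicate 3, TRIB3 (-1.26, adjusted p = 0.016) and ASNS (1.2, adjusted p = 0.0222) passed. The insoluble estimate for CHAC1 was 0.03 ± 0.24 (adjusted p = 0.95).

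Intron counts gave a second readout, of fragments that fell on intron sequence. Such fragments can come from unspliced mRNAs, lariats or other RNA derived from introns, which these counts cannot tell apart. Of the 8 genes with an intron entry 6 passed the filter of 1 CPM. DDIT3 had 32 intron counts over all 24 libraries and was not tested, and ASNS had 0 counts in every library. The ASNS gene model has 15847 intron bases and the gene overlaps a same-strand lncRNA, as given above. That 0 therefore cannot be read as absence of intron sequence, and whether its fragments went unassigned was not tested. In the soluble fraction 1 of the 6 rose with NaAsO2 (ATF3), where 0.925% of 17406 genes were called higher, 3 with RK-33 (ATF3, CHAC1 and SESN2), where 0.62% were, and 4 from NaAsO2 to Combo (ATF3, SESN2, CHAC1 and PPP1R15A), where 5.37% were. For the insoluble libraries the counts were 4 with NaAsO2 (ATF3, CHAC1, SESN2 and PPP1R15A; 10.1% of genes), 3 with RK-33 (ATF3, CHAC1 and SESN2; 0.689%) and 4 from NaAsO2 to Combo (the same 4; 6.34%). Without replicate 3 of the NaAsO2 insoluble libraries the first of these became 3 of 6, PPP1R15A being lost, with 5.03% of genes called higher, and the last was again 4 of 6 (6.19%). Fitted with only the groups compared, 2 of 6 were called with NaAsO2 in the insoluble fraction, PPP1R15A (adjusted p = 0.083) and CHAC1 (adjusted p = 0.0993) being lost, and the Combo call of PPP1R15A was lost there too (adjusted p = 0.0767). The median over the 6 genes was 1.89 for Combo over NaAsO2 in the soluble fraction, beside -0.00 for all genes tested.

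ATF3 introns changed more than those of the other 5 genes against Ctrl. Soluble intron levels, as CPM of the intron counts, were 35.0, 39.0 and 38.7 CPM in Ctrl, 294.4, 247.9 and 289.1 CPM with NaAsO2, 203.9, 246.1 and 275.2 CPM with RK-33 and 1370.1, 1368.2 and 1252.7 CPM with Combo. Every Combo library held over 4 times the level of any other soluble library, and the single treatments overlapped each other well above Ctrl. The log2 rise was 2.88 ± 0.17 with NaAsO2 (adjusted p = 4.84e-13), 2.69 ± 0.17 with RK-33 (adjusted p = 2.89e-12) and 2.26 ± 0.15 from NaAsO2 to Combo (adjusted p = 1.74e-11). Of all counts on ATF3, introns took 24.9% to 30.1% in the Ctrl soluble libraries, 41.6% to 46.8% with NaAsO2, 37.2% to 41.1% with RK-33 and 48.2% to 50.6% with Combo. All treated soluble libraries were above all Ctrl soluble libraries in that share. In the insoluble fraction the shares were 34.6% to 37.9% with Ctrl and 36.5% to 54.5% with NaAsO2, which overlapped Ctrl. They were 47.5% to 52.8% with RK-33 and 49.2% to 50.3% with Combo. Of all counts in the soluble libraries, introns took 17.7% to 22.3% with Ctrl and 13.7% to 18.9% with NaAsO2. With RK-33 they took 13.3% to 22.6% and with Combo 18.1% to 28.4%.

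SESN2 introns stood apart in Combo. Soluble levels were 23.8, 18.2 and 21.0 CPM in Ctrl, 38.3, 44.9 and 30.5 CPM with NaAsO2, 41.0, 44.5 and 45.1 CPM with RK-33 and 190.7, 214.7 and 191.5 CPM with Combo. The rise from NaAsO2 to Combo was 2.38 ± 0.20 in introns (adjusted p = 1.02e-09) and 1.02 ± 0.21 in exons, and the difference between those values was not tested. Introns took 39.2% to 44.1% of the counts on SESN2 in the Combo soluble libraries and 12.7% to 24.5% in those of NaAsO2, without overlap. Of all counts in the same libraries, introns took 18.1% to 28.4% with Combo and 13.7% to 18.9% with NaAsO2. How many other genes had no overlap in that share was not counted. Insoluble Combo levels of 170.8, 175.5 and 239.3 CPM were all above the 42.8, 34.9 and 72.5 CPM of NaAsO2.

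The other introns were short or thinly counted. CHAC1 introns held 79 to 109 counts in the Combo soluble libraries and 7 to 17 in those of NaAsO2, a rise of 2.11 ± 0.35 (adjusted p = 5.8e-05), and PPP1R15A introns 39 to 51 against 8 or 9, a rise of 1.68 ± 0.32 (adjusted p = 0.000469), with gene models of 1500 and 573 intron bases. The RK-33 calls of CHAC1 introns rested on few counts. They were lost in the insoluble fraction without any 1 of the 6 libraries, and in the soluble fraction without any 1 of them but RK-33 replicate 3. The soluble RK-33 call of SESN2 introns was lost without Ctrl replicate 2 or 3 (0.95 to 1.15), and the insoluble Combo call of PPP1R15A introns without NaAsO2 replicate 1 (0.96). ATF4 introns held at most 30 counts per library, and TRIB3 introns were at 20.6 to 21.7 CPM with Combo and 12.7 to 15.4 CPM with NaAsO2 in the soluble fraction, which did not pass (0.63 ± 0.25, adjusted p = 0.0862).

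RNAs that are retained in the nucleus were present in all libraries. From NaAsO2 to Combo, in the soluble fraction, mean exon levels went from 7074.4 to 9806.2 CPM for MALAT1, from 333.1 to 634.5 CPM for NEAT1 and from 14.7 to 47.8 CPM for KCNQ1OT1. For KCNQ1OT1 the Combo soluble libraries ran from 32 to 77.7 CPM with a median of 33.8 CPM. From Ctrl to NaAsO2 the mean levels of these RNAs went down instead, from 12519.4, 478.1 and 16.5 CPM. The part of nuclear RNA in the intron levels of ATF3 and SESN2 was not tested.

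**Figure D3:**
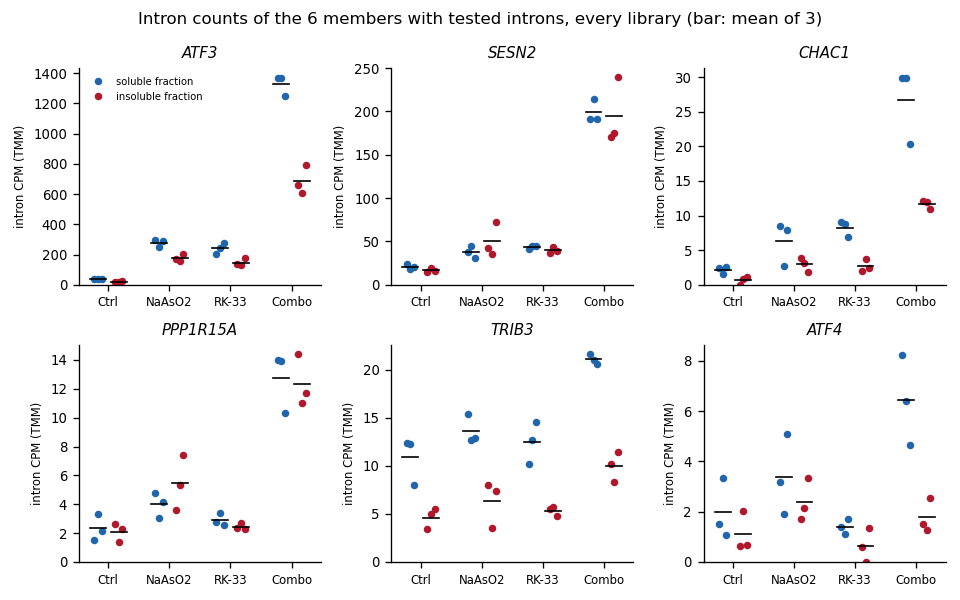
Intron level of the 6 genes with tested introns in every library, as TMM-normalised CPM of intron counts (vertical axis, linear from 0), by treatment and fraction. Points are libraries and black bars are means of 3. For ATF3 the Combo soluble libraries lie between 1252.7 and 1370.1 CPM, and for SESN2 the Combo libraries of both fractions lie above all others.

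The fractions of each treatment were compared by the share of a library that each transcript took. The RNA yield of a fraction was not used, so these ratios do not say how a transcript's RNA was split between fractions. With Ctrl, ATF4 was the one of the 10 genes called, lower in the insoluble fraction at -1.24 ± 0.21 (adjusted p = 5.04e-05), where 10.7% of genes were called lower, so that 1 of 10 was near the background. The median of the 10 was -0.60, beside -0.03 for all genes tested. With the lysate as a block DDIT3 was called lower as well. With RK-33, ATF4 was lower at -1.29 ± 0.21 (adjusted p = 2e-05; 15.2% of genes called lower) and ASNS higher at 1.22 ± 0.26 (adjusted p = 0.000355; 15.5% called higher). With NaAsO2 and with Combo 0 of the 10 were called by edgeR's quasi-likelihood test, its likelihood ratio test or DESeq2, where 30.6% and 23.1% of genes were called in either direction and 5 of the 10 had an unadjusted p under 0.05 in each (61.5% and 57.4% of all genes).

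ATF3 and DDIT3 were lower in the insoluble fraction under every treatment. Estimates ran from -0.81 to -0.47 for ATF3 and from -0.99 to -0.56 for DDIT3, none reaching the fold threshold. The libraries of the fractions did not overlap for these genes in any of the 4 treatments. How many other genes had no overlap was not counted. Of all genes, 51% to 59.6% differed between fractions at an edgeR adjusted p under 0.05, depending on the treatment. SESN2 was the gene whose CPM was most alike in both fractions of Ctrl, at a log2 ratio of 0.01 ± 0.21 (edgeR adjusted p = 0.982).

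The fraction difference shifted with arsenite for 4 of the 10 genes, as tested by NaAsO2 against Ctrl. ATF4 shifted towards the insoluble fraction by 1.15 ± 0.30 (adjusted p = 0.00711), PPP1R15A by 1.12 ± 0.32 (adjusted p = 0.0138) and CEBPB by 1.23 ± 0.36 (adjusted p = 0.0152), where 4.57% of genes were called in that direction, and ASNS shifted away by -1.28 ± 0.41 (adjusted p = 0.0282; 4.99% of genes). All 4 calls were lost without replicate 3 of the NaAsO2 insoluble libraries. The estimates were then 0.71 ± 0.16 for ATF4 (adjusted p = 0.000893), 0.69 ± 0.19 for PPP1R15A, 0.68 ± 0.19 for CEBPB and -1.05 ± 0.41 for ASNS (adjusted p = 0.0556), and 0 of the 10 passed, with 4.36% of genes still called towards the insoluble fraction. The ASNS call was also lost with the lysate as a block (-1.29, adjusted p = 0.0728) and without any 1 of 5 other libraries. RN7SL1 moved with these values in that library, as given above, and its part in them was not tested. Between Combo and NaAsO2 the fraction difference passed for 0 of the 10 (0.142% of genes called in either direction), with 5 of the 10 at an unadjusted p under 0.05 (13.1% of all genes). PPP1R15A was called by the likelihood ratio test and by DESeq2, and without Combo insoluble replicate 3 (-1.51, adjusted p = 0.0106).

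**Figure D4:**
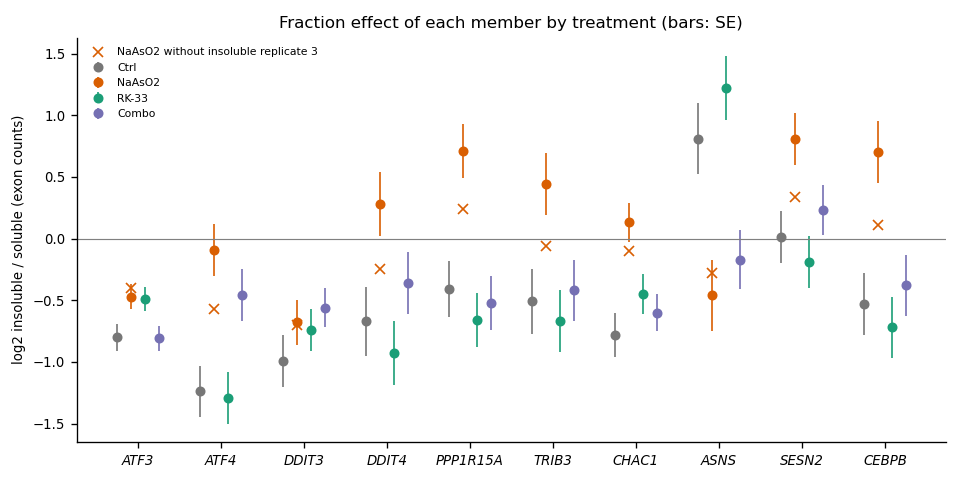
Log2 ratio of insoluble to soluble exon level for each of the 10 genes (horizontal axis) in the 4 treatments (colours), with standard errors. Crosses are NaAsO2 without insoluble replicate 3. ATF4 is at -1.24 in Ctrl and -0.09 with NaAsO2, and at -0.57 with NaAsO2 once that library is left out.

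Other genes of the pathway were counted from 4 lists, all of whose genes were tested. The 21 genes for the eIF2 kinases, eIF2, its exchange factor eIF2B and its phosphatases held 0 calls in any of the 6 treatment comparisons by edgeR's quasi-likelihood test, its likelihood ratio test or DESeq2, with 5 to 12 of the 21 at an unadjusted p under 0.05 in the first, where 17.6% to 51% of all genes were. The largest estimates with NaAsO2 in the soluble fraction were 0.78 for GCN1, which helps to activate the kinase GCN2 (adjusted p = 0.0173), and -0.63 for DNAJC3, an inhibitor of eIF2 kinases (adjusted p = 0.00567). The 12 aminoacyl-tRNA synthetases held 0 calls by the same 3 tests, and all 12 had an unadjusted p under 0.05 with NaAsO2 in the soluble fraction, as did 29.1% of all genes, with a median of 0.52 beside 0.03 for all genes, led by MARS1 and TARS1 at 0.90. RK-33 alone gave a soluble median of 0.42 for the 12, beside -0.01 for all genes. Of the 12, 9 had an edgeR unadjusted p under 0.05 there, as did 17.6% of all genes. With NaAsO2 the insoluble median of the 12 was -0.39 beside -0.02, with GARS1 at -0.90 (adjusted p = 0.000316) and TARS1 at -0.88 (adjusted p = 3.51e-06).

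Of 20 genes of amino acid transport and synthesis, 2 fell with arsenite in the soluble fraction, where 1.18% of genes were called lower, and 1 in the insoluble fraction, where 8.37% were. SLC7A1, a cationic amino acid transporter, went from 374.9 to 171.9 CPM in the soluble fraction (-1.12 ± 0.11, adjusted p = 6.65e-07), and SLC7A11, the cystine transporter, from 215.1 to 107.5 CPM (-1.0 ± 0.18, adjusted p = 0.000871). The SLC7A11 call sat at the fold threshold, and DESeq2 called SLC7A1 alone. SLC1A5, a glutamine transporter, fell in the insoluble fraction from 340.9 to 139.3 CPM (-1.29 ± 0.15, adjusted p = 1.13e-06). CTH, an enzyme of cysteine synthesis, was the one gene of the list that rose, from NaAsO2 to Combo in the insoluble fraction. There 3.11% of all genes were called higher, so 1 of 20 was near the background. CTH went from 5.99 to 16.4 CPM (1.45 ± 0.19, edgeR adjusted p = 2.89e-05). The median of the 20 for Combo over NaAsO2 in the soluble fraction was 0.05.

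Of 25 further genes described as ATF4 or CHOP targets, DUSP1, a MAP kinase phosphatase, was called in 5 of the 6 comparisons and was the single call of the list in 4 of them. It went from 72.7 ± 5.77 CPM in Ctrl to 151.7 ± 6.03 CPM with NaAsO2 and 323.6 ± 15.1 CPM with Combo in the soluble fraction (SD, n = 3). In the insoluble fraction 5 of the 25 rose with NaAsO2 (ATF5, BBC3, DUSP1, GDF15 and JDP2), where 5.61% of all genes did, and 3 of the 25 without replicate 3 (BBC3, DUSP1 and GDF15), where 2.56% did. From NaAsO2 to Combo 2 of the 25, HERPUD1 and STC2, were called in the insoluble fraction, where 3.11% of all genes were called higher. By edgeR 0 of the 25 were called without that library (3.03% of all genes), with 8 at an unadjusted p under 0.05. The median of the 25 was 0.22 for Combo over NaAsO2 in the soluble fraction, where that of the 10 genes was 1.52. The 10 genes and the lists were chosen with earlier results of these data known, so these medians are only a description.

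**Figure D5:**
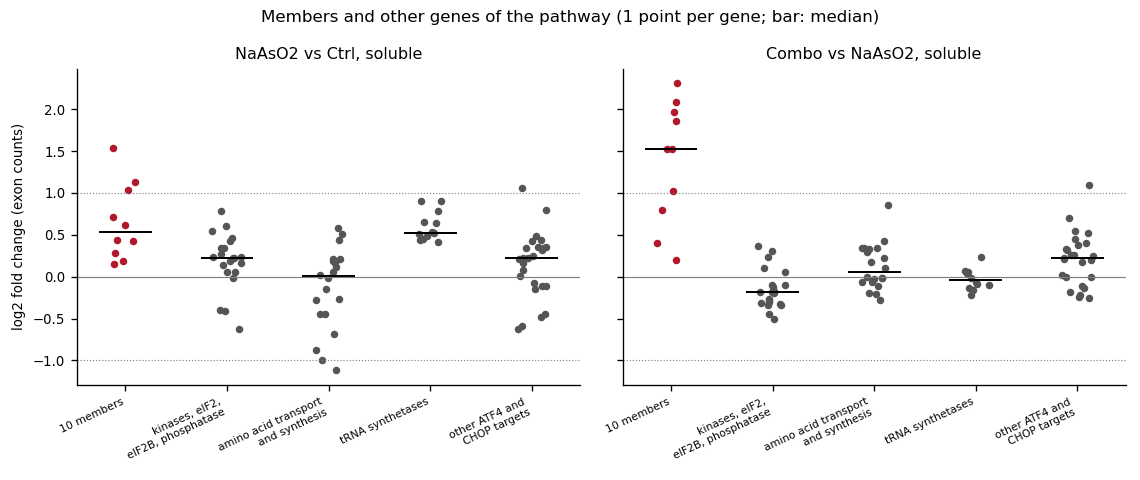
Log2 fold change of exon counts in the soluble fraction for the 10 genes and for the genes of 4 other pathway lists, for NaAsO2 against Ctrl (left) and Combo against NaAsO2 (right). Each point is a gene, bars are medians and dotted lines mark 1 and -1. In the right panel the median of the 10 genes is 1.52, while those of the other lists lie between -0.18 and 0.22. Genes and lists were chosen with earlier results of these data known.

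As a description of likeness, mean log2 levels over the 8 groups were correlated with those of 10260 genes of at least 10 CPM, which share the libraries. The closest to ATF3 were CHAC1 (Pearson r = 0.988), DDIT3 (0.987) and DNAJB1, a heat shock co-chaperone (0.985), and DDIT4 and PPP1R15A ranked 10 and 11. ATF4 ranked 171 for ATF3, at 0.762. The closest to ATF4 were LBH (0.983), CHMP1B (0.978) and FOSL1 (0.978), and the nearest of the other members was CEBPB, at rank 117 (0.893). Without NaAsO2 insoluble replicate 3, an alternative chosen after seeing the data, the closest to ATF3 were again CHAC1, DDIT3 and DNAJB1, with PPP1R15A and DDIT4 at ranks 5 and 6. The genes closest to ATF4 were then others: PNRC1 (0.987), DEPP1 (0.984) and SNAI2 (0.979), with CEBPB at rank 115.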

How the data were processed

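Total RNA of 24 libraries (4 treatments, 2 fractions, 3 replicates) was sequenced. The authors aligned reads to GRCh38.p13 with STAR 2.7.2b and deposited raw counts of uniquely mapped fragments per gene (featureCounts 1.5.3, GENCODE release 40, no strand setting) for exons and, with a minimum overlap of 25 bases, for introns. Split lines of 1 exon gene and 21 intron genes were rejoined. Libraries were grouped by their labels. Features with a mean of at least 1 CPM (17666 exon, 17406 intron) were fitted over all 8 groups with edgeR 4.0.16 (R 4.3.3; TMM factors, quasi-likelihood test), and p-values were adjusted by Benjamini-Hochberg over all of them. The genes named were the 10 chosen by symbol. For each other list the 2 largest changes in NaAsO2 against Ctrl and Combo against NaAsO2 were eligible, and for ATF3 and ATF4 the 3 genes most alike. ATF5, GDF15 and JDP2 were named after their values were seen. The members and lists were chosen with earlier results of these data known.

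On simulated counts for NaAsO2 against Ctrl in the soluble fraction, 97 of 100 exon changes of log2 1.5 and 100 of 100 of log2 2.5 were recovered, with 7 false calls among 17666 genes. DESeq2 1.42.0, the edgeR likelihood ratio test, RLE and library size scaling, no filter, summed exon and intron counts, fits of only the groups compared, blocks and leaving out each library were the alternatives. Soluble and insoluble libraries of the same treatment and number were taken as fractions of 1 lysate, which the labels do not state. Such fractions share their source and the study's methods compare them in pairs, so a lysate block was fitted as an alternative. Deviations from group means correlated above 0.1 in only 2 of these 12 pairs (-0.297 to 0.243). Overlaps of genes were read from GENCODE release 44, and promoter sequences are those of RefSeq (GRCh38.p14). Total counts per library were 10968059 to 19799530. The circular RNA table was used only to look for host genes, and the table of linear counts at circular RNA sites was not used here. Spike-in counts were not analysed here.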

Additional observations from a re-analysis of the deposited data

Results flagged for a closer look

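These genes were picked out because an effect differed between groups by the test of the difference itself. For CHAC1 the arsenite response was larger with RK-33 than without it in the soluble fraction, by 1.09 ± 0.23 on the log2 scale (adjusted p = 0.0116, edgeR; 0.89 to 1.29 over the other settings, with adjusted p from 0.000116 to 0.0282), and the 0.89 came from summed exon and intron counts, under the fold threshold.

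The difference between fractions was shifted by arsenite for ATF4 (1.15), PPP1R15A (1.12), CEBPB (1.23) and ASNS (-1.28). Without replicate 3 of the NaAsO2 insoluble libraries these values were 0.71, 0.69, 0.68 and -1.05, and none of the 4 was called. The adjusted p over the other settings for ASNS ran from 0.0168 to 0.0826. That call was also lost without Ctrl soluble replicate 2, Ctrl insoluble replicate 2 or 3, or NaAsO2 soluble replicate 1 or 3, with values from -1.43 to -0.90 over all libraries left out in turn.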

How the results depend on the processing

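Of the estimates for single genes under other settings, 1299 kept their direction and side of the threshold, 31 became calls, 19 lost one and 22 changed sign. With 1 library left out these numbers were 1182, 39, 33 and 42. No estimate that changed sign had been a call. The cause was not tested, except that the fit of only the groups compared and the fits without a library have fewer samples.

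Number of the 10 genes called, by setting. With library size alone it became 1 for NaAsO2 against Ctrl (soluble), 2 for the difference in arsenite response with RK-33 (soluble), 2 for the fractions of Ctrl and 1 for the shift of the fraction difference from NaAsO2 to Combo. That scaling moved the median of all genes to -0.15 for NaAsO2 against Ctrl (soluble), where 8.69% of calls were higher (29.4% with TMM), and to 0.18 for the difference in response. Shares of higher calls also moved by over 10 points for NaAsO2 against Ctrl (insoluble, 40.1% to 29.2%), RK-33 against Ctrl (soluble, 54.9% to 39.8%; insoluble, 37.7% to 51.9%) the shift of the fraction difference with arsenite (47.8% to 68.7%) and that from NaAsO2 to Combo (24% to 13%), and with RLE factors for the difference in response (insoluble, 62.4% to 50.6%). For introns they moved from 75.9% to 62.5% for RK-33 against Ctrl (insoluble) and, for Combo against NaAsO2, from 85.7% to 73.3% (soluble) and from 61.7% to 47.8% (insoluble). With no filter it became 2 for the fractions of Ctrl and 2 for the shift from NaAsO2 to Combo, which was 1 with the likelihood ratio test and 1 with DESeq2. With only the groups compared it became 2 for Combo against NaAsO2 (insoluble), 2 for the difference in response (soluble) and 2 for the fractions of Ctrl. With summed exon and intron counts it was 0 for the difference in response (soluble), 3 for the fractions of Ctrl and 4 for those of RK-33. For introns, NaAsO2 against Ctrl (soluble) had 2 calls with no filter, the likelihood ratio test, DESeq2 and only the groups compared, and in the insoluble fraction 2 with only the groups compared.

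With the lysate as a replicate block, 2 of the 10 genes were called between the fractions of Ctrl, DDIT3 being added, and ASNS was lost from the shift with arsenite. Numbers across treatments mark no shared culture in the labels. Same-numbered libraries of a fraction correlated above 0.1 in 10 of 36 pairs, with r from -0.43 to 0.788 and a median of -0.0154. The replicate block by number moved no count of the 10 by over 1.5 times. It made ASNS a call in NaAsO2 against Ctrl (insoluble) and lost the CHAC1 intron call in RK-33 against Ctrl (insoluble).

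Over the libraries left out in turn, the number called ran from 1 to 2 for the fractions of Ctrl, from 0 to 8 for the shift with arsenite (8 without NaAsO2 insoluble replicate 1, 0 without replicate 3), from 0 to 2 for the insoluble difference in response, from 0 to 2 for the fractions of NaAsO2 and from 0 to 3 for the shift from NaAsO2 to Combo. For introns it ran from 1 to 2 for NaAsO2 against Ctrl and from 1 to 3 for RK-33 against Ctrl, both soluble.

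Estimates that changed sign under another setting, none of them a call. In the insoluble difference in response, DDIT3 was -0.02 (RLE), -0.01 (no filter), -0.03 (DESeq2), -0.02 (only the groups compared) and -0.03 (summed counts), CHAC1 was -0.01 (RLE, DESeq2 and only the groups compared) and -0.06 (summed), DDIT4 was -0.00 (DESeq2) and -0.03 (summed) and SESN2 was 0.11 (summed). In the soluble one, ATF4 was 0.08 (library size) and DDIT3 -0.02 (summed). For Combo against NaAsO2 (insoluble) ATF4 was -0.00 (RLE), -0.01 (DESeq2) and -0.04 (summed). CEBPB was -0.03 for NaAsO2 against Ctrl (soluble, library size). Between the fractions, SESN2 in Ctrl was -0.08 (library size), -0.09 (no filter) and -0.16 (summed), and CHAC1 with NaAsO2 was -0.01 (summed).

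Over the libraries left out in turn, estimates crossed 0 as follows. Difference in response, insoluble: ATF4 -0.66 to 0.03, DDIT3 -0.15 to 0.26, DDIT4 -0.28 to 0.55, PPP1R15A -0.35 to 0.37, CHAC1 -0.12 to 0.24 and SESN2 -0.34 to 0.35, and, soluble, ATF4 -0.20 to 0.00. Fractions of NaAsO2: ATF4 -0.57 to 0.18, DDIT4 -0.25 to 0.56, TRIB3 -0.06 to 0.76 and CHAC1 -0.10 to 0.30. SESN2 in Ctrl ran from -0.05 to 0.04 and ASNS in Combo from -0.31 to 0.00. Shift from NaAsO2 to Combo: ATF4 -0.64 to 0.07 and DDIT3 -0.04 to 0.21. Combo against NaAsO2, insoluble: ATF4 -0.19 to 0.50 and CEBPB -0.57 to 0.29. NaAsO2 against Ctrl, soluble: ASNS -0.01 to 0.46. Introns, RK-33 against Ctrl: ATF4 -0.77 to 0.07 (soluble) and PPP1R15A -0.00 to 0.42 (insoluble).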
